A study of Mus musculus with 16 samples.

Results

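Transcripts of 30 genes that mark macrophages, monocytes, neutrophils and dendritic cells were followed in RNA from sorted natural killer (NK) cells. The genes were taken by symbol from a table of 49671 genes. All 30 were found there, and 28 had enough counts to be tested. The genes fall into 4 groups by role. There are 10 general monocyte and macrophage genes, 9 complement and resident macrophage genes, 5 dendritic cell genes and 6 neutrophil genes.

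NK cells were sorted as live CD45+ CD3- NKp46+ DX5+ cells from axillary tumour-draining lymph nodes (LN) or from lungs, with 5000 to 10000 cells per library. All mice, in all 4 groups, were FVB/N animals of the genotype Cdh1F/F;Trp53F/F;Foxp3GFP-DTR, and each bore an orthotopically transplanted KEP mammary tumour of 100 mm2. The groups are LN PBS, LN DT, lung PBS and lung DT, each with 4 libraries that the design text calls biological replicates. The DT groups received 25 ug of diphtheria toxin (DT), and the PBS groups received PBS, at T = 0 and T = 7, for which the labels give no unit. The Foxp3GFP-DTR allele places the DT receptor in cells that express Foxp3, which are mainly regulatory T cells, so that the toxin removes those cells. Lungs were digested with Liberase and their red cells were lysed, whereas no digestion is stated for LN. Tissue and preparation therefore cannot be told apart in these data.

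Myeloid cells are the phagocytes and antigen-presenting cells of innate immunity. Monocytes circulate and enter tissues, macrophages reside there and take up debris and microbes, neutrophils are short-lived killers of microbes, and dendritic cells carry antigen to T cells. The lung holds macrophages in its air spaces and in its interstitium as well as blood monocytes in its vessels, and the LN holds sinus and medullary macrophages. NK cells are lymphocytes, and most of the 30 genes are not part of their usual expression programme. In bulk RNA, fewer cells of a type and less RNA per cell cannot be told apart, and the cells that gave these transcripts were not identified.

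The upstream sequences of Lyz2, Lyz1, C1qb, C1qc and Chil3 are shown because each holds the same short motif. These genes are also set beside each other as neighbours or in ratios below. Lyz1, C1qb and C1qc passed the main test in no comparison. Lyz2 and Lyz1 encode lysozymes, C1qb and C1qc encode chains of complement C1q, and Chil3 encodes the secreted chitinase-like protein Ym1. Each sequence reads 5′ to 3′ on the minus strand, the coding strand of the gene, of GRCm38.p6, from the RefSeq promoter table. Capitals mark ACTTCCT, the reverse complement of AGGAAGT. The motif holds the GGAA core that ETS family factors recognise, PU.1 of myeloid cells among them.
Lyz2, chr10:117282322-117282522: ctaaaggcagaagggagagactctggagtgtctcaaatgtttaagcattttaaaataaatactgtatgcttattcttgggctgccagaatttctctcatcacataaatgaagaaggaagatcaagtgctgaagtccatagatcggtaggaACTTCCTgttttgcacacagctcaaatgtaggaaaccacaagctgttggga
Lyz1, chr10:117292869-117293118: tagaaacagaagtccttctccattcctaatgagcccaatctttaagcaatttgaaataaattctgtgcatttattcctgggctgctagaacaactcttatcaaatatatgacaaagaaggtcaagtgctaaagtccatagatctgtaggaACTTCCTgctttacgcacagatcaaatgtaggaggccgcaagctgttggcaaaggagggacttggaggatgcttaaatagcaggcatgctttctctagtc
C1qb, chr4:136886201-136886450: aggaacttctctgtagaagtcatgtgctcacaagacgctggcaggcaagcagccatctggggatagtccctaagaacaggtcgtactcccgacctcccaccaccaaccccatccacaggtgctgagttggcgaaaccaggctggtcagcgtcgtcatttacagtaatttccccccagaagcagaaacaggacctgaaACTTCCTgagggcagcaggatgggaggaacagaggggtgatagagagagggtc
C1qc, chr4:136893066-136893164: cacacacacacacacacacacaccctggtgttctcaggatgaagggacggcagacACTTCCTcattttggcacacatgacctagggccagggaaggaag
Chil3, chr3:106167565-106167814: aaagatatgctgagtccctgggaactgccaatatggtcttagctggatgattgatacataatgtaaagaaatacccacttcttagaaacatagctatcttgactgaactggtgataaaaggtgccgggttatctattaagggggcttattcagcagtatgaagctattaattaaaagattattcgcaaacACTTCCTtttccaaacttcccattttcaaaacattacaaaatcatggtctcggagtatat

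The Lyz2 and C1qc sequences were shortened where they ran into the annotated gene. Distances were counted to the start in the RefSeq promoter table, which lies past the end of the shortened Lyz2 and C1qc sequences. The motif lay 100 bases before this start in both Lyz2 and Lyz1, 53 in C1qb, 195 in C1qc and 60 in Chil3. AGGAAGT, the only motif searched, was sought on both strands in the 250 bases before each start. It occurred in 10 of the 29 windows (34.5%) of the 26 genes found in the promoter table, against 2525 of all 32851 windows of that length (7.69%). The 10 were Lyz2, Lyz1, Fcgr1, Slamf9, C1qb, C1qc, Mrc1, Chil3, S100a8 and Trem1. C1qa, Cd14, Csf1r and Adgre1 were not in the promoter table. The match is a description of letters and shows no binding.

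Several of the genes are neighbours. Lyz2 (ENSMUSG00000069516, chr10:117277334-117282274) and Lyz1 (ENSMUSG00000069515, chr10:117287796-117292868) lie 5521 bases apart, and their upstream windows were 80.65% identical. C1qb, C1qc and C1qa follow each other on chromosome 4 with gaps of 3616 and 2851 bases, and S100a8 and S100a9 lie 22596 bases apart on chromosome 3. Near-identical copies make some counts uncertain. The transcripts of Lyz1 and Lyz2 were 95.96% identical, those of Chil3 and Chil4 94.41% and those of Ear2 and Ear1 96.76%, so reads of these pairs could have been split or discarded in counting. Chil4 had a mean of 0.672 CPM (counts scaled to a common library size, per 1000000) in lung DT, and Ear1 had 11.8.

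Total counts per library ran from 3929560 to 10744934, and lung PBS replicate 2 had the fewest. Genes of the sort gate were present in every library: Ncr1 (NKp46) at 2457 to 7917 CPM, Ptprc (CD45) at 3117 to 8436 and Itga2 (DX5) at 62.9 to 159.8. Cd3e, the excluded marker, lay between 0 and 30.2 CPM. The mitochondrial share of counts was 0.951 to 2.57% in lung PBS, 3.11 to 4.40% in lung DT, 1.05 to 1.68% in LN PBS and 1.24 to 4.93% in LN DT. Malat1, a nuclear RNA used here as a sign of RNA quality, was highest in LN DT replicate 1 (18216 CPM) and lung DT replicate 1 (17164 CPM) and reached 8511 in the other libraries.

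The 30 genes together took a small share of the RNA, and a larger one in lung than in LN. They held 0.00855 to 0.0743% of counts in LN PBS, 0.0173 to 0.0678% in LN DT, 0.0504 to 0.537% in lung PBS and 0.0453 to 1.24% in lung DT. Summed over the genes, LN PBS replicates 1 to 4 had 238, 82.4, 709 and 230.2 CPM. LN DT had 197, 390.6, 607 and 220.2 CPM. Lung PBS had 1415, 5859.6, 551 and 748 CPM, and lung DT had 2996, 11918, 6587 and 456 CPM. Lung and LN overlapped under both treatments, since LN PBS replicate 3 lay above lung PBS replicate 3 and lung DT replicate 4 lay below LN DT replicate 3.

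**Figure D1:**
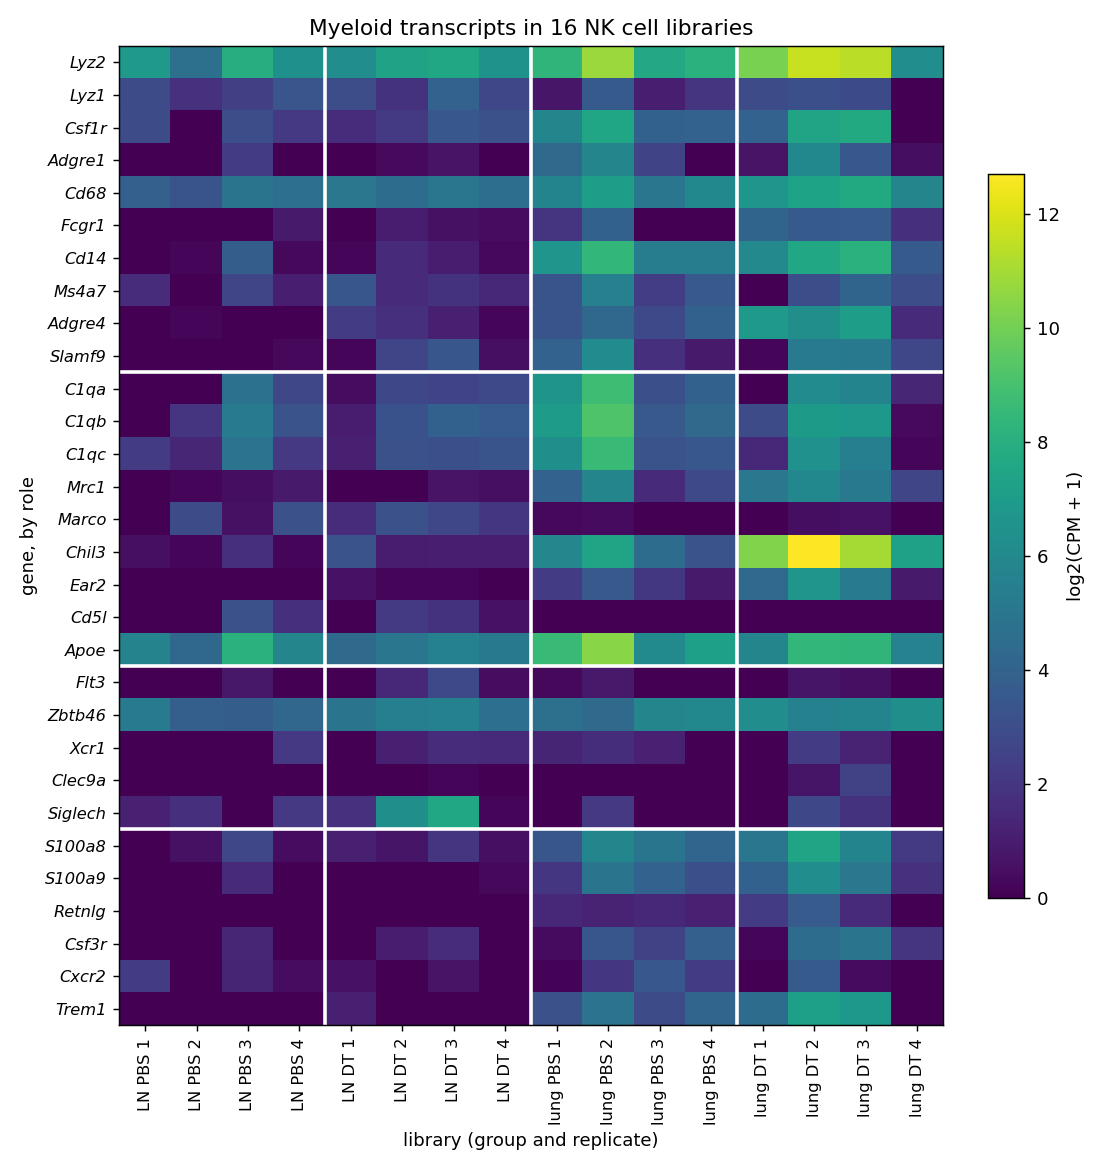
Level of each of the 30 genes (vertical axis, ordered by role, white lines between roles) in each of the 16 libraries (horizontal axis), coloured by log2(CPM + 1). Lyz2, Cd68, Apoe, Zbtb46 and Chil3 had counts in every library, and Chil3 was brightest in lung DT, where it reached 6738 CPM.

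Within a group many of the genes were highest in the same library, though not all were. Among genes with at least 10 counts in the group, lung PBS replicate 2 was the highest of its group for 22 of 26 and LN PBS replicate 3 for 15 of 22. In LN DT, replicate 3 was highest for 12 of 22. In lung DT, replicate 2 was highest for 18 of 27 and replicate 3 for 7, and replicate 4 was lowest for 18. The mean of a lung group therefore rests largely on 1 or a few libraries. The LN groups had summed levels of 315 ± 272 CPM (PBS) and 354 ± 189.5 CPM (DT), and the lung groups 2144 ± 2505 CPM (PBS) and 5489 ± 4969 CPM (DT; SD, n = 4 each). Markers of other cells also moved with tissue: the erythroid list summed to 272 to 1001 CPM in lung PBS and 25.0 to 579.6 in lung DT, against 1.21 to 28.1 in LN PBS and 3.30 to 46.1 in LN DT. Their part in the results was not tested.

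**Figure D2:**
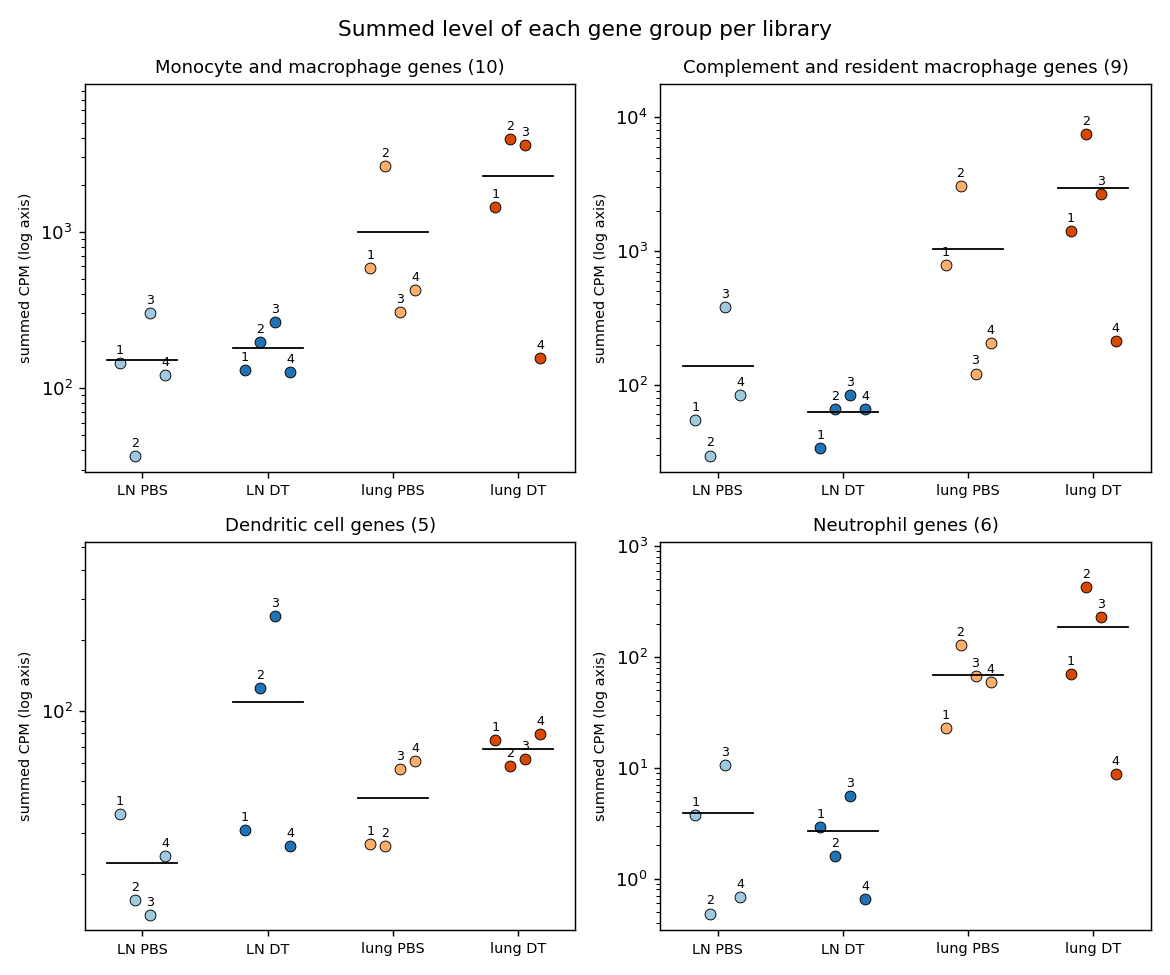
Summed CPM (log axis) of the genes of each role in each library; each point is a library with its replicate number and the line is the group mean. Lung DT replicate 4 had 155 CPM of monocyte and macrophage genes while the other 3 lung DT libraries had 1447 to 3908.

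Compared per length of transcript (CPM per kilobase of exon), Lyz2 had the highest mean in 3 of the 4 groups, with 88.1 in LN PBS, 97.6 in LN DT and 492 in lung PBS. Apoe, which encodes a lipid carrier made by many macrophages, was the next in LN PBS (47.2) and in lung PBS (237). In lung DT, Chil3 had 1572 ± 1772 CPM per kilobase and Lyz2 1347 ± 1091 (SD, n = 4), so these neighbours in the order did not differ beyond their spread. Cd68 came after them with 105 CPM per kilobase.

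The first comparison set NK sorts of lung against those of LN in mice given PBS. Myeloid transcripts were higher in lung: 8 of the 28 tested genes rose and 0 fell at an adjusted p under 0.05 (edgeR's quasi-likelihood test, Benjamini-Hochberg adjustment over all genes), while of all 13940 tested genes 2.7% rose and 0.904% fell. The 8 were Adgre4, Cd14, Cd68 and Slamf9 of the monocyte and macrophage genes, Chil3, Ear2 and Mrc1 of the resident macrophage genes, and Trem1 of the neutrophil genes. None of the 3 tested dendritic cell genes passed. The fitted log2 fold change was above 0 for 24 genes and below 0 for 4, with a median of 4.02 against -0.01 over all tested genes. At an unadjusted p under 0.05, 22 genes were higher and 2 lower, where 10.3% and 6.54% of all tested genes were. DESeq2 called 1 gene, Marco, lower (log2 -5.15, adjusted p = 0.0160; 2.87% of all tested genes), and limma-voom called 0 lower (7.57% of all). Without lung PBS replicate 2 the median of the members was 2.27. The count of 8 was 4 without LN PBS replicate 1, 2 or 4 and 3 without lung PBS replicate 2.

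In 12 of the 30 genes every lung PBS library lay above every LN PBS library, and in 0 every one lay below. Over all tested genes these shares were 9.25% and 9.91%. Beside the 8 that passed the test, the 12 were S100a8, S100a9, Retnlg and Csf1r. The median log2 fold change was 4.01 over the monocyte and macrophage genes, 3.95 over the complement and resident macrophage genes and 0.50 over the dendritic genes. Over the neutrophil genes it was 4.46, or 4.15 with the genes at 0 counts in LN set to their bound.

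**Figure D3:**
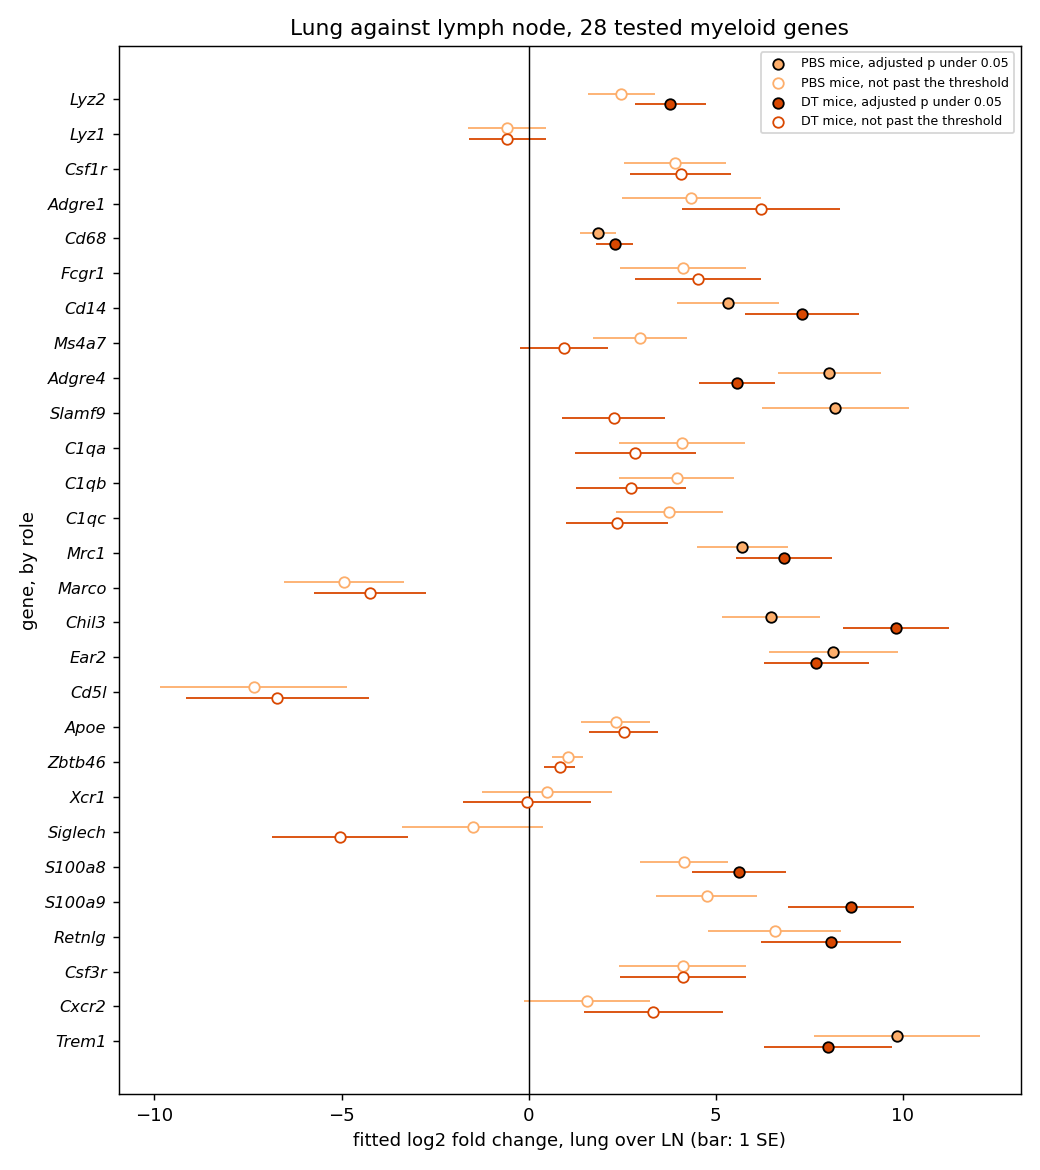
Fitted log2 fold change of lung over LN (horizontal axis, bar of 1 SE) for the 28 tested genes (vertical axis) in PBS mice and in DT mice, with filled points past an adjusted p of 0.05. Most points lie right of 0, and Marco and Cd5l lie left of it in both. Fitted values of genes with no counts in a group depend on the prior count.

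Adgre4, an adhesion receptor of monocytes (also called EMR4), was at 0, 0.121, 0 and 0 CPM in LN PBS and at 8.74, 18.3, 5.92 and 14.5 in lung PBS. The 1 LN library with a count had a single one. The ratio of summed counts was 369.8, and its 95% counting interval reached from 65.9 to 14650 (adjusted p = 0.00256). Chil3 was at 0.421, 0.121, 2.23 and 0.113 CPM in LN PBS and at 58.0, 171, 21.8 and 8.57 in lung PBS. Its log2 fold change was 6.48 ± 1.30 (SE; adjusted p = 0.00821). All 4 lung libraries lay above all 4 LN libraries for both genes.

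Mrc1, the macrophage mannose receptor, was at 0 to 0.905 CPM in LN PBS and at 15.2, 53.8, 1.93 and 6.08 in lung PBS, a log2 fold change of 5.71 ± 1.23 (adjusted p = 0.0124). Without lung PBS replicate 2 its adjusted p was 0.0515. Ear2, an eosinophil-associated ribonuclease also made by lung macrophages and monocytes, had no counts in LN PBS and 3.77, 10.5, 3.14 and 0.869 CPM in lung PBS. It was at least 42.0-fold higher against a floor of 3 counts over the group (adjusted p = 0.0155). Trem1, a receptor that amplifies inflammatory signals in neutrophils and monocytes, also had no counts in LN PBS and stood at 7.94, 28.03, 6.53 and 16.5 CPM in lung PBS. It was at least 142-fold higher (adjusted p = 0.0224), and this call was lost without any one of the LN PBS libraries or without lung PBS replicate 2 (adjusted p 0.0505 to 0.0645).

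Cd14, the co-receptor for bacterial lipopolysaccharide, was at 0, 0.121, 12.6 and 0.226 CPM in LN PBS and at 99.2, 340.0, 39.0 and 41.0 in lung PBS (log2 5.33 ± 1.35, adjusted p = 0.0347). Cd68, a lysosomal protein of phagocytes, was at 13.8, 8.72, 28.9 and 24.1 CPM in LN PBS and at 52.2, 132, 30.7 and 61.1 in lung PBS (log2 1.87 ± 0.48, adjusted p = 0.0377). Slamf9 had 2 counts in LN PBS, both in replicate 4, and 15.2, 68.3, 2.30 and 0.869 CPM in lung PBS (ratio of counts 246, interval 67.6 to 2034, adjusted p = 0.0250). Lung lay above LN in every library for all of these, by a narrow margin for Cd68. The Cd14 call was lost without LN PBS replicate 1, 2 or 4 or lung PBS replicate 1 or 2 (adjusted p 0.0550 to 0.1098). The Cd68 call was lost without LN PBS replicate 1, 2 or 4, lung PBS replicate 1, 2 or 4 or LN DT replicate 2 or 3 (0.0507 to 0.134), and the Slamf9 call without any one LN PBS library or lung PBS replicate 2 (0.0759 to 0.0855).

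The remaining genes did not pass the test in PBS mice. Csf1r, the receptor for the macrophage growth factor CSF1, was at 6.52, 0, 7.44 and 3.28 CPM in LN and at 56.5, 175, 14.3 and 15.1 in lung (log2 3.91, adjusted p = 0.127). Lyz2 was at 114.7, 25.3, 241 and 82.8 CPM in LN PBS and at 320.5, 1788, 205 and 277 in lung PBS (log2 2.48, adjusted p = 0.139), and LN PBS replicate 3 lay above lung PBS replicate 3. The C1q chain genes had the same order of libraries in lung PBS, highest in replicate 2 and lowest in replicate 3. C1qb was at 0, 2.91, 36.7 and 8.60 CPM in LN and at 131.5, 585, 10.9 and 20.2 in lung, with log2 fold changes of 4.09, 3.95 and 3.76 for C1qa, C1qb and C1qc. Apoe was at 49.8, 18.4, 280.2 and 55.0 CPM in LN and at 399, 1413, 67.4 and 144 in lung (log2 2.32, adjusted p = 0.187).

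Of the other macrophage genes, Fcgr1, the high-affinity IgG receptor, was at 0 in 3 LN PBS and 2 lung PBS libraries and reached 14.4 CPM. Adgre1, which encodes F4/80, was at 0 in 3 LN PBS libraries and 1 lung PBS library and reached 53.8 CPM. Ms4a7, a membrane protein of macrophages, lay between 0 and 5.33 CPM in LN PBS and between 3.99 and 45.2 in lung PBS. Lyz1 was at 2.54 to 9.28 CPM in LN PBS and at 0.695 to 11.1 in lung PBS. Its fitted log2 fold change was -0.58 where that of its neighbour Lyz2 was 2.48. Lyz2 had 8.93 to 59.7 counts per count of Lyz1 across the LN libraries and 97.1 to 434 in the 5 lung libraries with at least 10 Lyz1 counts.

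Marco and Cd5l had lower fitted values in lung, without passing the test. Marco, a scavenger receptor of macrophages, was at 0, 6.42, 0.496 and 7.92 CPM in LN PBS and at 0.199, 0.278, 0 and 0 in lung PBS (ratio of counts 0.0273, interval 0.00556 to 0.0816, adjusted p = 0.0988). Cd5l, a protein secreted by tissue macrophages, was at 0, 0, 8.05 and 2.26 CPM in LN PBS and had 0 counts in all 8 lung libraries. That places it at least 24.5-fold lower in lung PBS, with an adjusted p of 0.143. LN PBS replicate 1 was at 0 for both.

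The neutrophil genes other than Trem1 did not pass the test in PBS mice. S100a8 and S100a9 encode the calprotectin chains, which are among the most abundant proteins of neutrophils. S100a8 was at 0, 0.485, 5.45 and 0.339 CPM in LN PBS and at 9.73, 56.3, 29.6 and 16.5 in lung PBS (log2 4.16, adjusted p = 0.0571). S100a9 was at 0 to 1.98 and at 2.98 to 29.1 CPM (log2 4.76, adjusted p = 0.0575). Retnlg, a resistin-like protein of neutrophils, had no counts in LN PBS and 1.24 to 1.69 CPM in lung PBS, at least 17.7-fold higher with an adjusted p of 0.0668. Csf3r, the G-CSF receptor, was at 0 to 1.61 CPM in LN PBS and at 0.298 to 14.03 in lung PBS, and Cxcr2, a chemokine receptor, at 0 to 3.79 and 0.0993 to 9.79. Among wider neutrophil genes, Camp and Elane had 0 counts in all 16 libraries and Ly6g did not exceed 0.555 CPM. Of the 5 tested genes of this wider list 0 were called, 4 lay above 0 and 1 below, and their median was 2.81. The list summed to 190 to 356 CPM in LN PBS and to 133 to 185 in lung PBS.

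Dendritic cell genes showed no common direction. Zbtb46, a transcription factor of conventional dendritic cells, had counts in every library. It stood at 35.0, 13.2, 12.6 and 17.2 CPM in LN PBS and at 25.1, 20.0, 55.0 and 60.7 in lung PBS (log2 1.04, adjusted p = 0.194). Its order of libraries was not that of the macrophage genes: LN PBS replicate 3 and lung PBS replicate 2, where most of those genes were highest, were the lowest of their groups for Zbtb46. Xcr1, a chemokine receptor of cross-presenting dendritic cells, did not exceed 3.39 CPM in PBS mice, and Siglech, a lectin of plasmacytoid dendritic cells, did not exceed 3.33. Flt3, the receptor for the dendritic cell growth factor FLT3L, and Clec9a, a receptor for dead-cell actin, were the 2 genes with too few counts to test. Flt3 did not exceed 6.02 CPM in any library, and Clec9a did not exceed 4.57.

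The same comparison between tissues in mice given DT used the other 8 libraries. Here 11 of the 28 tested genes rose in lung and 0 fell, against 3.97% and 2.78% of all tested genes (edgeR's quasi-likelihood test, Benjamini-Hochberg adjustment). These were Lyz2, Cd14, Cd68 and Adgre4, then Mrc1, Chil3 and Ear2, and then the neutrophil genes S100a8, S100a9, Retnlg and Trem1. The log2 fold change was above 0 for 23 genes and below 0 for 5, with a median of 3.56 against -0.04 over all tested genes. At an unadjusted p under 0.05, 16 were higher and 3 lower, where 10.8% and 10.1% of all tested genes were. DESeq2 called 1 gene lower, again Marco (log2 -4.27, adjusted p = 0.0280; 5.06% of all tested genes), and limma-voom called 0 (5.68% of all). With the replicate number as a block within the DT groups, 10 genes rose and 1, Siglech, fell, against 5.86% and 7.02% of all tested genes. The libraries of the 2 tissues did not overlap for 10 genes higher in lung and for 1 lower, Marco, against 5.57% and 6.08% of all tested genes.

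Chil3 gave the smallest p. It was at 8.57, 1.06, 1.08 and 1.10 CPM in LN DT and at 1289, 6738, 2082 and 156 in lung DT (log2 9.82 ± 1.42, adjusted p = 0.000511). Every lung library lay far above every LN library. Ear2 had 0.514, 0.132, 0.120 and 0 CPM in LN DT and 19.4, 98.9, 37.1 and 0.917 in lung DT (log2 7.69 ± 1.40, adjusted p = 0.00556). Mrc1 was at 0 to 0.602 CPM in LN DT and at 32.9, 60.5, 34.5 and 5.37 in lung DT (log2 6.83 ± 1.29, adjusted p = 0.00467). Adgre4 was at 3.60, 2.24, 1.203 and 0.110 CPM in LN DT and at 119, 76.5, 135 and 1.83 in lung DT (log2 5.56 ± 1.01, adjusted p = 0.00351). For Adgre4 the groups overlapped, because lung DT replicate 4 lay below 2 LN libraries.

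Lyz2 was at 75.6, 157.5, 193 and 87.7 CPM in LN DT and at 1125, 3191, 2702 and 73.4 in lung DT (log2 3.79 ± 0.94, adjusted p = 0.0210). Lung DT replicate 4 lay below all 4 LN libraries. The Lyz2 call was lost without any one of the LN DT libraries or without lung DT replicate 2 (adjusted p 0.0507 to 0.0671), without replicate 1 of both groups (0.0734), with no gene filter (0.0956) and with the replicate block within the DT groups (0.0644). Cd14 was at 0.171, 1.98, 0.963 and 0.220 CPM in LN DT and at 62.7, 187, 280.1 and 11.3 in lung DT (log2 7.30 ± 1.52, adjusted p = 0.00819). Cd68 was at 31.7, 21.7, 31.0 and 23.2 CPM in LN DT and at 103, 163, 209.8 and 53.4 in lung DT (log2 2.30 ± 0.49, adjusted p = 0.00871). No lung library of either gene fell within the LN range.

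Of the neutrophil genes, 4 of 6 rose in DT mice, against 3.97% of all tested genes. The median log2 fold change was 6.81 over the 6 genes, or 5.57 with genes at 0 set to their bound. Csf3r and Cxcr2 did not pass edgeR's quasi-likelihood test. Csf3r was at 0 to 2.05 CPM in LN DT and at 0.143, 21.7, 28.8 and 2.75 in lung DT (log2 4.12, adjusted p = 0.158). Cxcr2 was at 0 to 0.602 CPM in LN DT and at 0, 11.3, 0.277 and 0 in lung DT (log2 3.33, adjusted p = 0.337). Of 5 tested genes of the wider neutrophil list 0 were called, 3 lay above 0 and 2 below, and their median was 0.34. That list summed to 81.9 to 223 CPM in lung DT and to 165 to 326 in LN DT. S100a8 was at 1.199, 0.660, 2.89 and 0.440 CPM in LN DT and at 30.7, 170.3, 53.0 and 3.54 in lung DT (log2 5.62 ± 1.25, adjusted p = 0.0117). S100a9 had 2 counts in LN DT, both in replicate 4, and 14.2, 74.1, 32.1 and 2.49 CPM in lung DT (ratio of counts 487, interval 134 to 4025, adjusted p = 0.00588). Trem1 was at 1.199, 0, 0 and 0 CPM in LN DT and at 21.4, 143, 110.9 and 0 in lung DT (log2 8.01 ± 1.71, adjusted p = 0.0123). Retnlg had no counts in LN DT and 3.87, 11.52, 1.94 and 0 CPM in lung DT, at least 45.8-fold higher (adjusted p = 0.0250). Lung DT replicate 4 was at 0 for both Trem1 and Retnlg and was the lowest lung DT library for S100a8 and S100a9. Without LN DT replicate 2, 3 or 4 or without lung DT replicate 2 the Retnlg call was lost (adjusted p 0.0556 to 0.0684). It was also lost with a replicate block over all 4 groups (0.0686) and held with the block within the DT groups (0.0159).

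The C1q genes did not pass in DT mice. C1qb was at 1.03, 8.19, 14.2 and 12.2 CPM in LN DT and at 6.46, 121.6, 110.5 and 0.262 in lung DT, and the log2 fold changes of C1qa, C1qb and C1qc were 2.85, 2.73 and 2.35. Apoe was at 20.0, 31.2, 47.2 and 33.9 CPM in LN DT and at 53.5, 347, 321 and 48.2 in lung DT (log2 2.54, adjusted p = 0.113), with all lung libraries above all LN libraries. Fcgr1 was at 0 to 0.924 CPM in LN DT and at 16.4, 11.1, 12.2 and 2.23 in lung DT (log2 4.52, adjusted p = 0.121), also without overlap. Csf1r was at 2.06 to 9.99 CPM in LN DT and at 14.8, 169, 210.5 and 0 in lung DT (log2 4.06, adjusted p = 0.0836). Marco was at 2.06, 8.05, 5.53 and 3.08 CPM in LN DT and at 0 to 0.554 in lung DT (log2 -4.24, adjusted p = 0.1002). Cd5l, at 0 to 3.43 CPM in LN DT, was at least 17.1-fold lower in lung DT (adjusted p = 0.133). Siglech was at 0.110 to 198 CPM in LN DT and at 0, 5.76, 2.63 and 0 in lung DT (log2 -5.04, adjusted p = 0.107, or -5.07 and 0.0326 with the replicate block within the DT groups).

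The next comparison set DT against PBS within the LN, which asks whether removal of Foxp3-expressing cells went with a change of these transcripts in the NK sort. None of the 28 genes was called (edgeR's quasi-likelihood test, Benjamini-Hochberg adjustment), and of all tested genes 0.0646% rose and 0% fell. The groups overlapped for all 30 genes, whereas 5.05% of all tested genes lay wholly higher and 3.42% wholly lower. At an unadjusted p under 0.05, 4 genes were higher and 0 lower, where 8.29% and 3.52% of all tested genes were. DESeq2 called 2 higher, Adgre4 (adjusted p = 0.00499) and Slamf9 (adjusted p = 0.0462), while it called 1.88% of all tested genes higher and 0.438% lower. Limma-voom called 1 higher, Zbtb46 (adjusted p = 0.00627), while it called 14.9% of all tested genes higher and 11.9% lower. The log2 fold change was above 0 for 16 genes and below 0 for 11, Retnlg had no LN counts, and the median was 0.37 against 0.08 over all tested genes. This median turned to -0.06 without LN DT replicate 3 (13 genes above 0, 14 below) and was 1.16 without LN PBS replicate 3 (23 above, 4 below). It was 0.57 without LN PBS replicate 4, and 0.10 to 0.18 without LN PBS replicate 1 or 2 or LN DT replicate 1 or 2.

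The genes of smallest p in LN were Adgre4, Slamf9, Siglech, Zbtb46 and Ear2. Adgre4 had 1 count in LN PBS and 3.60, 2.24, 1.203 and 0.110 CPM in LN DT, so that the counts were 55.1 times those of PBS (95% counting interval 9.45 to 2222, adjusted p = 0.177). Slamf9 had 2 counts in LN PBS and 0.171, 5.41, 9.51 and 0.440 CPM in LN DT, 70.3 times those of PBS (95% counting interval 19.1 to 587, adjusted p = 0.244). Siglech was at 1.26, 2.30, 0 and 3.28 CPM in LN PBS and at 2.57, 79.0, 198 and 0.110 in LN DT (log2 5.33 ± 1.84, adjusted p = 0.261). The Siglech difference rests on LN DT replicates 2 and 3, since replicates 1 and 4 lay within the PBS range. Zbtb46 was at 28.3, 43.6, 47.4 and 24.0 CPM in LN DT (log2 0.87 ± 0.42, adjusted p = 0.423), again highest in replicates 2 and 3. Ear2 had 0 counts in LN PBS and 5 in LN DT, at least 1.88-fold higher (adjusted p = 0.503). Fitted beside each library's mitochondrial share, the log2 fold changes were 2.21 for Adgre4, 0.29 for Zbtb46 and 4.10 for Siglech. Those of Slamf9 and Ear2 were 5.75 and 3.35, against 5.74 and 3.57 without this share. The median over the tested members was 0.69 with it. In LN DT replicates 1 to 3 the share was 4.01 to 4.93%, above all LN PBS libraries, so this fit separates share and treatment poorly. With the replicate number as a block the log2 fold change of Siglech was 2.38 (adjusted p = 0.674).

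LN DT replicates 2 and 3 also stood apart in genes of other cells. The B cell list summed to 1025 and 1023 CPM in them, against 203 and 162 in LN DT replicates 1 and 4 and 82.7 to 138 in LN PBS. The wider list of plasmacytoid dendritic cell genes summed to 463 and 629 CPM in these 2 libraries and to 238 to 345 in the other 6 LN libraries. Of that list, Klk1 reached 49.2 CPM in LN DT, Ccr9 45.7 and Ly6d 102. The part of these cells in the Siglech and Zbtb46 values was not tested.

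Within the lung, DT against PBS also gave 0 called genes of 28 (edgeR's quasi-likelihood test, Benjamini-Hochberg adjustment), with 0.0574% of all tested genes higher and 0.0502% lower. No gene's groups were free of overlap, against 3.35% wholly higher and 4.53% wholly lower over all tested genes. At an unadjusted p under 0.05, 3 genes were higher and 0 lower, where 7.66% and 7.06% of all tested genes were. DESeq2 called 2 members higher, Chil3 and Adgre4, and limma-voom 1, Chil3, while DESeq2 called 1.97% of all tested genes higher and 1.3% lower and limma-voom 1.8% and 1.32%. The log2 fold change was above 0 for 19 and below 0 for 8, Cd5l had no lung counts, and the median was 0.73 against 0.09 over all tested genes. The median was 0.23 without lung DT replicate 2, 0.28 without lung DT replicate 3, 0.45 without lung PBS replicate 3 and 1.44 without lung PBS replicate 2. By role the medians were 0.51 for monocyte and macrophage genes, 0 for complement and resident macrophage genes (4 above 0, 4 below), 0.66 for dendritic genes and 1.20 for neutrophil genes. Total-count scaling moved the median of all tested genes to 0.15.

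**Figure D4:**
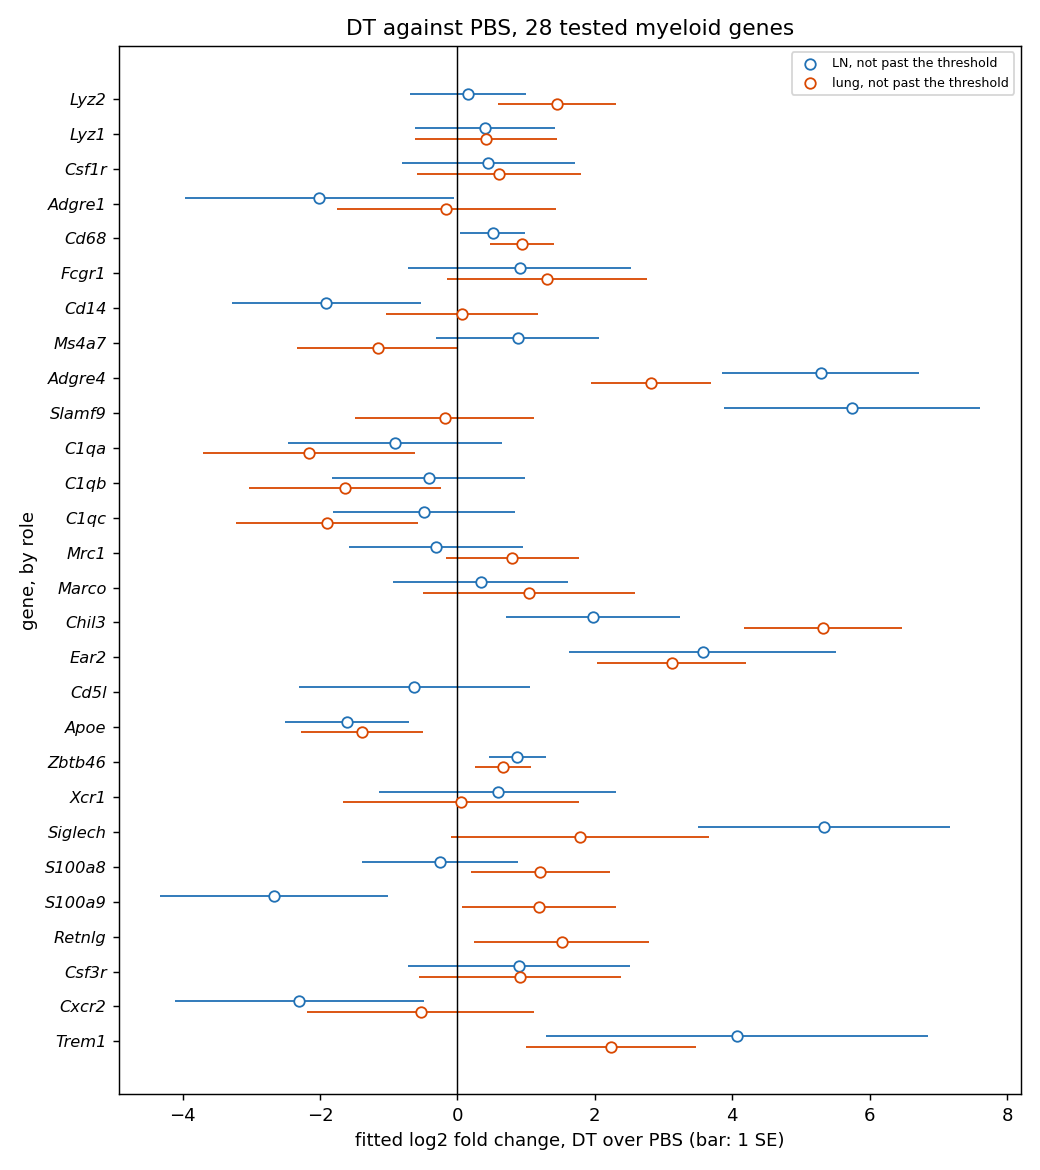
Fitted log2 fold change of DT over PBS (horizontal axis, bar of 1 SE) for the tested genes (vertical axis) in LN and in lung; none passed an adjusted p of 0.05. Chil3 in lung lies at 5.32, Siglech in LN at 5.33, and the C1q genes lie left of 0 in both tissues.

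Chil3 had the smallest p in lung. It was at 58.0, 171, 21.8 and 8.57 CPM in lung PBS and at 1289, 6738, 2082 and 156 in lung DT (log2 5.32 ± 1.15, adjusted p = 0.0742). The lowest DT library (replicate 4) lay below the highest PBS library (replicate 2), and the other 3 DT libraries lay above all PBS libraries. The value passed the threshold with DESeq2 (adjusted p = 0.00118), limma-voom (0.00852), the replicate number as a block (0.0355), without lung DT replicate 4 (0.0221) and without replicate 1 of both DT groups (0.0311). Over all alternatives the adjusted p of Chil3 ran from 0.00118 to 0.805. The lung DT libraries also had a higher mitochondrial share (3.11 to 4.40%) than the lung PBS libraries (0.951 to 2.57%), and with this share as a covariate the log2 fold change of Chil3 was 5.10 with an adjusted p of 0.805. Because these ranges do not overlap, share and treatment cannot be told apart in lung, and the fit with the covariate cannot separate them.

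Adgre4 was at 8.74, 18.3, 5.92 and 14.5 CPM in lung PBS and at 119, 76.5, 135 and 1.83 in lung DT (log2 2.81 ± 0.88, adjusted p = 0.180), and it passed the threshold with DESeq2 (adjusted p = 0.0359) and without lung DT replicate 4 (0.0312). Fitted beside the mitochondrial share, its log2 fold change was 0.08, while that of Trem1 was 0.74, that of Ear2 2.93 and that of Cd68 0.80. As for Chil3, this fit cannot separate the share from the treatment. Ear2 was at 3.77, 10.5, 3.14 and 0.869 CPM in lung PBS and at 19.4, 98.9, 37.1 and 0.917 in lung DT (log2 3.12 ± 1.08, adjusted p = 0.224). For both genes replicates 1 to 3 of lung DT lay above all PBS libraries and replicate 4 did not. Cd68 (log2 0.94 ± 0.47, adjusted p = 0.356) and Trem1 (log2 2.23 ± 1.24, adjusted p = 0.417) came next. Lyz2 had a log2 fold change of 1.45 (adjusted p = 0.443), S100a8 1.21 (0.600) and S100a9 1.19 (0.643).

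C1qa, C1qb, C1qc, Apoe and Ms4a7 lay in the other direction without passing. The log2 fold changes were -2.16, -1.64 and -1.90 for the 3 C1q genes, -1.39 for Apoe and -1.16 for Ms4a7. C1qa was at 93.9, 432, 7.61 and 14.4 CPM in lung PBS and at 0, 68.5, 52.3 and 1.57 in lung DT. C1qc was at 79.5, 394, 8.58 and 9.93 CPM in lung PBS and at 1.72, 85.7, 43.8 and 0.131 in lung DT. Within lung DT the C1q genes were high in replicates 2 and 3 and low in replicates 1 and 4, whereas Lyz2, Chil3 and Adgre4 were high in replicates 1, 2 and 3.

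Because libraries differed in the total of myeloid transcripts, counts of one gene per count of another were set side by side within each lung library. These ratios were chosen after the values had been seen and carry no test. Chil3 counts per C1q count (C1qa, C1qb and C1qc summed) were 0.190, 0.121, 0.804 and 0.192 in lung PBS and 158, 24.4, 10.1 and 79.4 in lung DT. Chil3 counts per Lyz2 count were 0.181, 0.0958, 0.106 and 0.0309 in lung PBS and 1.15, 2.11, 0.771 and 2.13 in lung DT. C1q counts per Lyz2 count were 0.951, 0.789, 0.132 and 0.161 in lung PBS and 0.00727, 0.0864, 0.0765 and 0.0268 in lung DT. In all 3 ratios the lung PBS and lung DT libraries did not overlap, although the levels of these genes did. The ratios are not separate results, since Chil3 per C1q equals Chil3 per Lyz2 divided by C1q per Lyz2. How often pairs of genes beyond those given here and below separate in this way was not computed.

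The share of the 30 genes' counts that came from Chil3 was 1.15 to 4.10% in lung PBS and 31.6 to 56.5% in lung DT, and that from C1q was 4.91 to 24.1% and 0.273 to 3.14%. Both shares are of the same total, so a higher Chil3 share by itself lowers that of C1q. Summed C1q levels overlapped, at 27.1 to 1411 CPM in lung PBS and 1.96 to 276 in lung DT. Ear2 counts per C1q count were 0.00748 to 0.116 in lung PBS and 0.180 to 2.37 in lung DT. Lyz2 counts per C1q count, the inverse of the ratio given above, were 1.05 to 7.56 and 11.6 to 138. Adgre4 per C1q count (0.0130 to 0.326 and 0.277 to 14.5) and Apoe per C1q count (1.00 to 3.24 and 1.26 to 24.5) overlapped between the groups. Csf1r (0.124 to 0.527 and 0 to 1.81) and Cd68 per C1q count (0.0936 to 1.37 and 0.591 to 27.2) did so too. S100a8 per C1q count (0.0319 to 1.09 and 0.257 to 3.75) and Apoe per Lyz2 count (0.330 to 1.24 and 0.0476 to 0.657) also overlapped. Lyz2 per Lyz1 count did not overlap, with 97.1 to 161 in 2 lung PBS and 167 to 434 in 3 lung DT libraries. In LN, Apoe per Lyz2 count did not overlap between PBS (0.434 to 1.16) and DT (0.198 to 0.386). In lung DT the C1q denominator was 57, 2202, 1492 and 15 counts in replicates 1 to 4, so the ratios of replicates 1 and 4 rest on few counts.

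**Figure D5:**
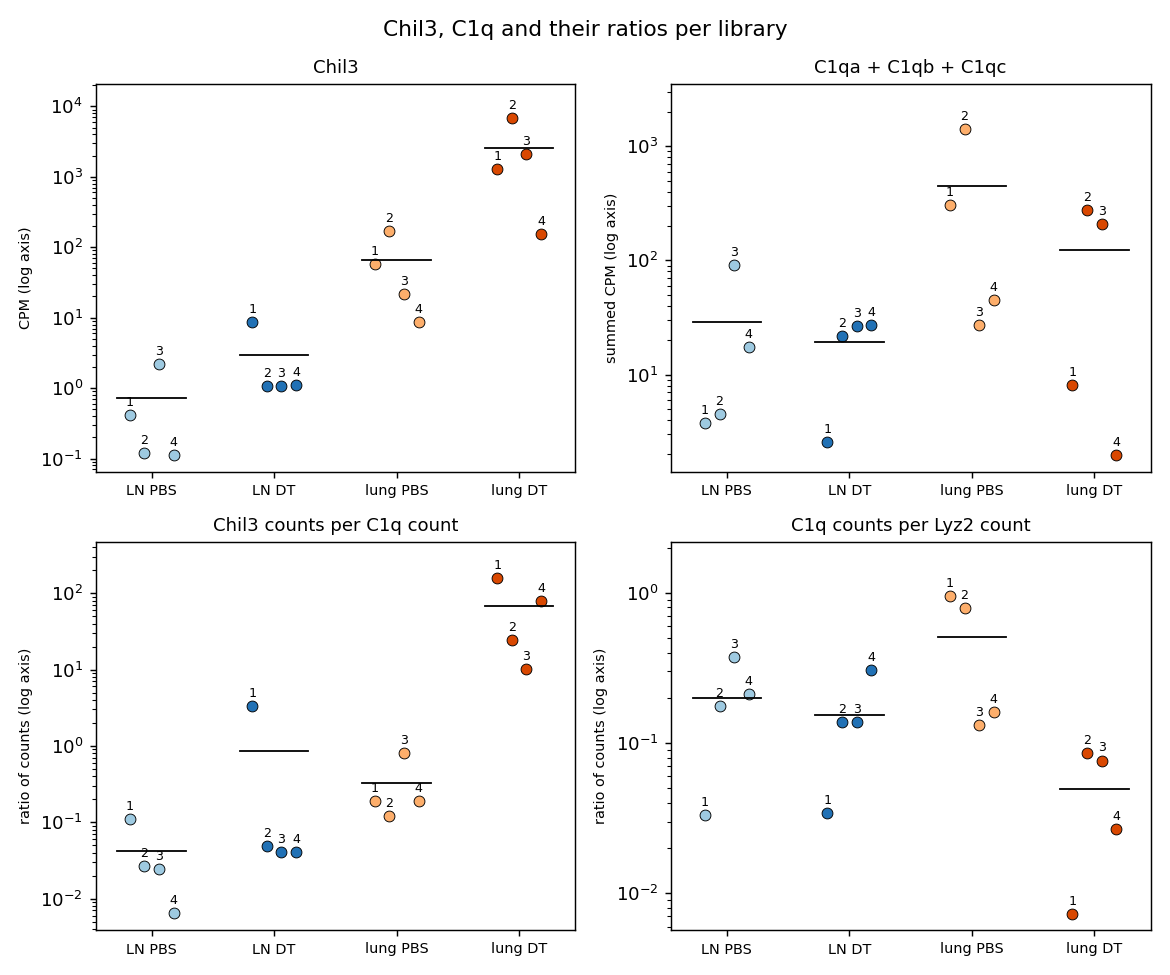
Chil3 and summed C1q levels (upper panels, CPM, log axis) and counts of Chil3 per C1q count and of C1q per Lyz2 count (lower panels, log axis) in each library; points carry the replicate number and lines are group means. Chil3 per C1q count was 10.1 to 158 in lung DT and 0.121 to 0.804 in lung PBS.

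The difference between the 2 DT effects (LN effect minus lung effect) was tested for each gene. None of the 28 genes was called (edgeR's quasi-likelihood test), against 0.00717% higher and 0% lower over all tested genes, and 1 gene, Slamf9, was higher at an unadjusted p under 0.05 (2.88% of all tested genes higher, 1.33% lower). Neither DESeq2 (0.129% of all tested genes higher, 0.00717% lower) nor limma-voom (0% in either direction) called any of them. The values of smallest p were 5.92 ± 2.27 for Slamf9, -3.34 ± 1.67 for Chil3, -3.85 ± 2.00 for S100a9, 2.48 ± 1.68 for Adgre4 and 3.54 ± 2.58 for Siglech (log2, SE, adjusted p = 0.99987 for each). That for S100a9 turned to 1.13 without LN PBS replicate 3, and that for Siglech to -1.84 without lung PBS replicate 2.

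Wider lists of myeloid genes that are not among the 30 were read in the same fits. Of all tested genes, 2.7% rose in lung and 0.904% fell in PBS mice, and 3.97% and 2.78% did so in DT mice. In PBS mice, 3 of 17 tested monocyte genes rose in lung (Ly6c2 by a log2 of 1.67, Clec4a3 by 5.86 and Fcgr4, which had no LN counts) and 1 fell (Ccr2, log2 -1.20). Ly6c2 and Ccr2 are also expressed by lymphocytes. Of 16 macrophage genes, 2 rose (Car4, log2 8.41, and Mgl2, log2 7.22), of 10 plasmacytoid genes 1 (Lair1, log2 1.27), and of 12 conventional dendritic and 5 neutrophil genes 0. In DT mice, 7 of the 17 monocyte genes rose and 1 fell. Of the 16 macrophage genes 5 rose (Gpnmb, Ear1, Car4, Krt79 and Plet1). Of the 12 conventional dendritic genes 1, Tlr3, fell. Of the 10 plasmacytoid genes Lair1 rose and Ly6d and Pacsin1 fell, and of the 5 neutrophil genes 0 were called. Car4, Krt79, Plet1 and Ear1 are known from alveolar macrophages. Siglecf and Fabp4 of the same list, also genes of alveolar macrophages, were not among the called genes. Marco, a macrophage gene among the 30, had lower fitted values in lung (log2 -4.94 in PBS and -4.24 in DT mice) without passing the test.

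For DT against PBS, 0 genes of these lists were called in either tissue. Of all tested genes 0.0646% rose and 0% fell in LN, and 0.0574% and 0.0502% did so in lung. Fcgr4, an Fc receptor of patrolling monocytes, was at 3.48, 13.3, 1.33 and 0 CPM in lung PBS and at 129, 83.0, 134 and 3.93 in lung DT (log2 4.35 ± 1.27, adjusted p = 0.168). Spp1, which encodes osteopontin, was at 32.3 to 84.4 CPM in lung PBS and at 448, 678, 233 and 35.4 in lung DT. Ly6c2 was at 562 to 1106 CPM in lung PBS and at 230.1 to 315 in lung DT, without overlap (log2 -1.47 ± 0.30, adjusted p = 0.0680). Siglecf and Fabp4, defining genes of alveolar macrophages, lay between 0 and 29.1 and between 0 and 18.8 CPM in lung DT.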

How the data were processed

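RNA of sorted NK cells was made into 16 Smart-seq2 libraries, per the labels' protocols. The submitters' processing notes name HISAT2, HTSeq and GRCm38. Their versions, the annotation release and the strand setting were not given in the sources used here, so overlapping and antisense genes cannot be told apart. The values are raw read counts deposited by the authors for 49671 Ensembl genes. Total counts were 3929560 to 10744934 per library, which limits genes with few counts.

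filterByExpr (minimum count 10, total 15) kept 13940 genes. Counts were scaled by TMM and fitted with edgeR 4.0.16 (R 4.3.3, quasi-likelihood, robust) as 4 group means with 12 residual degrees of freedom. P-values are two-sided with Benjamini-Hochberg adjustment over all tested genes at 0.05, and treat each library as a replicate. The design text calls the libraries biological replicates and does not say that each is 1 animal, so p-values measure the spread between these libraries. CPM use TMM-scaled sizes. A group at 0 counts was set to a floor of 3 counts over the group, and 1 to 3 counts carry a 95% interval. Both cover counting error only. Lengths came from GENCODE M21. Tests were checked on simulated data.

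The members and lists were chosen with earlier results of these data known. Every member is described; fold, SE and adjusted p are given for those called, or for the smallest p up to 5 where fewer were called. From other lists the 3 most abundant and the called myeloid genes were read, and genes named outside this rule were chosen after their values were seen. Alternatives were other scalings and filters, DESeq2 1.42.0, limma-voom (limma 3.58.1), a replicate block over all groups, the mitochondrial share as covariate and leaving out libraries. Deviations from the group means correlated above 0.1 (0.216 to 0.494) in all 4 same-numbered pairs of LN DT with lung DT, so the numbers were taken to pair these groups, which the labels do not state. A block within them was added after seeing the data. In the other 5 pairings of groups 4 of 20 pairs did so (-0.392 to 0.263), and those were taken as unpaired.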

Additional observations from a re-analysis of the deposited data

Results flagged for a closer look

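In 29 of 140 groups of 4 libraries checked, 1 library lay far from the other 3 by Dixon's criterion. Its rate of about 1 in 20 groups holds for normally distributed values, which CPM near 0 are not. A group with counts in only 1 library was always flagged, and a group with no counts could not be. The genes are not independent, since the same libraries recur.

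Lung PBS replicate 2 stood apart in the summed monocyte and macrophage genes (2646 CPM, next 585), in the sum of all 30 genes (5859.6 CPM, next 1415), in Lyz2 (1788 CPM), Ms4a7 (45.2) and Siglech (3.33). It is also the library with the fewest counts, 3929560.

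LN PBS replicate 3 stood apart in the summed complement and resident macrophage genes (382 CPM, next 83.7) and in Adgre1 (3.84 CPM), Cd14 (12.6), C1qc (27.4), Chil3 (2.23), Apoe (280.2), Flt3 (0.744), S100a8 (5.45), S100a9 (1.98) and Csf3r (1.61). The same library had Krt18, an epithelial keratin, at 67.4 CPM, Lcn2 at 116 and Spp1 at 332. Other LN PBS values that stood apart were Fcgr1 (0.905), Slamf9 (0.226) and Xcr1 (3.39) in replicate 4, and Adgre4 (0.121, a single count) in replicate 2.

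In LN DT, replicate 1 was high for Ms4a7 (9.59 CPM), Chil3 (8.57) and Trem1 (1.199) and low for C1qc (1.199). Clec9a (0.120) in replicate 3 and S100a9 (0.220) in replicate 4 rest on 1 or 2 counts. In lung DT, replicate 2 was high for Adgre1 (59.2 CPM) and Cxcr2 (11.3), replicate 3 for Clec9a (4.57), and replicate 4 was low for Lyz1, with 0 counts.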

How the results depend on the processing

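Each test was repeated under 26 alternatives, and that of lung against LN in DT mice under 1 more. For lung against LN in PBS mice the 8 called genes became 4 with no gene filter and 3 to 12 when 1 library was left out, with 4 without LN PBS replicate 1, 2 or 4, 3 without lung PBS replicate 2 and 12 without lung DT replicate 4. Adgre4 and Ear2 were called under all 26. With no gene filter Chil3 (adjusted p = 0.0601), Cd14 (0.155), Slamf9 (0.0768) and Trem1 (0.124) were not, limma-voom did not call Slamf9 (0.0597) or Trem1 (0.0726), and Cd68 was lost with total counts alone (0.0620) and with the block (0.0595). For lung against LN in DT mice the 11 called genes became 9 to 12 when 1 library was left out. Chil3, Adgre4, Mrc1, Ear2, S100a8, S100a9 and Cd68 were called under all 27, and with no gene filter Cd14 (adjusted p = 0.0505), Trem1 (0.0721) and Lyz2 (0.0956) were not.

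For DT against PBS in LN, 0 called genes became 2 with DESeq2 and 1 with limma-voom, and stayed 0 when any 1 library was left out. In lung, 0 became 2 with DESeq2, 1 with limma-voom, 1 without replicate 1 of both DT groups and 0 to 2 when 1 library was left out. The cause was not tested. Over all genes DESeq2 called 262 higher and 61 lower in LN and 275 and 181 in lung, and limma-voom 2084 and 1652 in LN and 251 and 184 in lung, where edgeR called 9 and 0, and 8 and 7.

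With the replicate number as a block, 1 gene was called for DT against PBS in lung and 10 for each tissue comparison. With a block within the DT groups only, 11 were called for lung against LN in DT mice, Lyz2 being lost and Siglech gained. Between the DT effects, 2 values reversed: S100a9 to 1.13 without LN PBS replicate 3 (-6.13 to 1.13 over single libraries left out) and Siglech to -1.84 without lung PBS replicate 2 (-1.84 to 4.78).

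With 1 library of the group left out, the mean summed level of the 30 genes ran from 183 to 392 CPM in LN PBS, 268 to 398 in LN DT, 944 to 2771 in lung PBS and 3321 to 7067 in lung DT. Depth limits the genes at 0 to 3 counts in LN, whose folds are bounds or wide intervals.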

Other observations

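Several gene groups outside the myeloid lists also differed in summed level between libraries. Plasma cell genes summed to 3.51 to 9.84 CPM in LN PBS and to 53.5 to 407 in LN DT. Of 3 tested genes of that list 1 was called higher with DT in LN, against 0.0646% of all tested genes. T cell genes summed to 483 to 524 CPM in LN PBS, 398 to 808 in LN DT, 124 to 175 in lung PBS and 156 to 704 in lung DT, where replicate 1 was the highest. Cma1, a protease gene listed with mast cells, was called higher in lung than in LN in PBS mice (log2 2.38, adjusted p = 0.00117, edgeR's quasi-likelihood test). A list of epithelial genes (Sftpc, Sftpa1, Sftpb, Scgb1a1, Epcam, Krt8 and Krt18) summed to 149 CPM in LN PBS replicate 3 and to 215 in lung DT replicate 3. In the other libraries it lay between 0 and 55.9. The genes behind these 2 sums differed. LN PBS replicate 3 had Krt18 at 67.4 CPM and Scgb1a1 at 0, and lung DT replicate 3 had Scgb1a1 at 191 and Krt18 at 0.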
